A study of Homo sapiens with 12 samples.

Results

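Aminoacyl-tRNA synthetases are the enzymes that attach each amino acid to its transfer RNA, the step that fixes which amino acid a codon will place in a protein. The genes described here were taken by name: 19 that encode the cytosolic enzymes and 16 that encode the mitochondrial ones, 35 genes of 58735 in the count table. All 35 passed the filter on low counts, with between 120 and 43416 reads per gene and library. Not every synthetase gene is on the list, and GARS1 and KARS1, placed with the cytosolic enzymes, each encode both the cytosolic and the mitochondrial enzyme for glycine and lysine.

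Both sets are encoded in the nucleus. The cytosolic enzymes charge the transfer RNAs used by cytosolic ribosomes, and several of them sit together in a multi-synthetase complex held by the scaffold proteins AIMP1, AIMP2 and EEF1E1. The mitochondrial enzymes are imported and charge the transfer RNAs made from the mitochondrial genome, whose few messenger RNAs encode subunits of the respiratory chain. Many cytosolic synthetase genes are induced by the transcription factor ATF4 when amino acids are short, and WARS1, the cytosolic enzyme for tryptophan, is also an interferon-stimulated gene.

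Sequencing of messenger RNA covered 4 groups of 3 libraries: KP4 cells in 100 nM trametinib, KP4 cells in DMSO, MiaPaca2 cells in 100 nM trametinib and MiaPaca2 cells in DMSO, each for 48 h. KP4 and MiaPaca2 are established lines from human pancreatic ductal adenocarcinoma, grown alone in culture with 10% fetal bovine serum. Trametinib blocks the kinases MEK1 and MEK2, which activate ERK, and DMSO is its solvent. No allele or transgene separates the groups, and each line stands for 1 tumour. The labels do not say whether the 3 libraries of a group were grown as separate cultures. The p-values below rest on the spread within groups, estimated together over all 12 libraries, and that spread may be only technical.

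Total counts ran from 20293688 to 28018129 per library. The 9 transcripts fixed as a check of ERK output, among them SPRY4, DUSP6, ETV4 and ETV5, were lower with trametinib in both lines, 9 of 9 in each. From lists of 6 epithelial and 4 mesenchymal markers, KRT18 lay at 125 to 819 CPM (library-scaled counts) and VIM at 3081 to 6463 CPM. EPCAM, also on the epithelial list, stayed at or below 0.934 CPM. In DMSO 2 of the epithelial markers were higher and 3 lower in KP4 than in MiaPaca2, with log2 fold changes from −5.77 to 1.69. Over all genes 32% were higher and 31.2% lower. The markers named here do not settle the cell type of the lines. The acinar markers PRSS1, CPA1 and CELA3A and the T cell marker CD3E had 0 counts in all 12 libraries. PECAM1, CD68 and DCN, taken from lists of 3 endothelial, 3 immune and 3 fibroblast markers, stayed at or below 0.653 CPM. These genes alone do not show their lists to be absent from the cells. Of these lists 2 endothelial, 1 immune and 2 fibroblast markers passed the filter on low counts. The 2 fibroblast markers stood higher with trametinib, with median log2 fold changes of 1.15 in KP4 and 1.79 in MiaPaca2. MiaPaca2 DMSO replicate 2 stood apart from its group: a chi-square of its counts against replicates 1 and 3, divided by the degrees of freedom, gave 14.5 and 13.3, where replicates 1 and 3 gave 7.70 against each other. Pairs in the other 3 groups gave 2.02 to 2.89. Messenger RNAs of the mitochondrial genome took 2.92% of its counts, against 2.02% and 1.90% in replicates 1 and 3.

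The 35 genes differed widely in level. On the scale of CPM per kilobase of exon, which allows genes to be compared, GARS1, which encodes the glycine enzyme, was the highest of all members in KP4, at 84.5 ± 0.953 with trametinib and 119 ± 2.76 in DMSO (mean ± SD, n = 3). It was also the highest in MiaPaca2 DMSO, at 113 ± 7.42, and in MiaPaca2 trametinib it was below WARS1 at 273 ± 4.77 and AARS1, the alanine enzyme, at 80.1 ± 0.554. Among the mitochondrial enzymes IARS2, which charges isoleucine, led in all 4 groups, at 62.5 ± 2.78 in KP4 trametinib, 61.4 ± 0.676 in KP4 DMSO, 60.4 ± 0.152 in MiaPaca2 trametinib and 76.8 ± 5.14 in MiaPaca2 DMSO. FARS2, SARS2, CARS2, PARS2 and WARS2 were among the lowest of the mitochondrial set, between 2.07 and 6.22 CPM per kilobase in group means. These levels divide by the full length of annotated exons, so a gene with many alternative exons, such as CARS1 with 10037 bases, reads lower than its main transcript alone would.

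Most cytosolic synthetase transcripts were lower in trametinib-treated KP4 cells, by modest amounts. Of the 19 cytosolic genes 15 were lower and 0 were higher at an edgeR adjusted p under 0.05, and of the 16 mitochondrial genes 5 were lower and 1, HARS2, was higher. Together 21 of 35 were called, 20 of them lower. Over all 16133 genes tested, 48.1% were called in KP4, 24.1% lower and 23.9% higher. The share of members called, 60%, is close to that of genes at or above the lowest member's level, given next. That set has no upper limit on level, so it is not matched to the members. The members' calls were nearly all in 1 direction. The median log2 fold change was −0.23 over the cytosolic genes and −0.09 over the mitochondrial genes, beside 0.00 over all genes and −0.03 over the 9856 tested genes at or above the lowest member's level, of which 60.5% were called. Without MiaPaca2 DMSO replicate 2, which enters the shared estimate of the spread, 24 members were called in KP4, 22 of them lower. In bulk samples such as these, fewer cells that express a gene and less of its RNA per cell cannot be told apart.

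The cytosolic enzymes for glycine, tyrosine, threonine and methionine fell furthest in KP4. GARS1 (ENSG00000106105, chromosome 7, 30594681 to 30634033, plus strand, GRCh38) had 347, 355 and 351 CPM in the KP4 trametinib libraries, against 496, 505 and 482 CPM in the KP4 DMSO libraries. YARS1, the tyrosine enzyme, had 207, 196 and 204 CPM with trametinib and 283, 285 and 272 CPM in DMSO. In both genes each treated library lay below each control library, with a gap far wider than the spread within a group. The log2 fold changes were −0.49 ± 0.04 for GARS1 (± SE; edgeR adjusted p = 1.64e-10) and −0.47 ± 0.04 for YARS1 (edgeR adjusted p = 4.51e-10). TARS1, the threonine enzyme, measured 403, 403 and 403 CPM with trametinib, against 559.6, 548 and 547 CPM in DMSO, a log2 fold change of −0.45 ± 0.04 (edgeR adjusted p = 3.42e-10). MARS1, the methionine enzyme (ENSG00000166986, chromosome 12, 57475445 to 57517569, plus strand), measured 287, 287 and 284 CPM with trametinib, against 375, 383 and 373 CPM in DMSO, a log2 fold change of −0.40 ± 0.05 (edgeR adjusted p = 6.80e-08). Both groups of TARS1 and of MARS1 were also fully separated. Of the exon bases of MARS1, 12.4% lie opposite other genes, among them DDIT3, which lay at 6.12 to 37.1 CPM.

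Inside the multi-synthetase complex the falls in KP4 were mostly smaller, apart from MARS1, given above at −0.40. Of its 7 enzymes on the list, 5 were lower, with a median of −0.14. Of the 12 cytosolic enzymes outside it 10 were lower, with a median of −0.29. Over all genes tested 24.1% were lower. The difference between these lists was not tested, and in MiaPaca2 the medians stood in the reverse order, −0.49 inside the complex and −0.35 outside. LARS1, the leucine enzyme, had 263, 262 and 257 CPM with trametinib, against 284, 292 and 286 CPM in DMSO (−0.14 ± 0.04, edgeR adjusted p = 0.00808). KARS1, the lysine enzyme, had 234, 237 and 241 CPM with trametinib, against 259.6, 259 and 269 CPM in DMSO (−0.14 ± 0.04, edgeR adjusted p = 0.00319). RARS1, the arginine enzyme, had 158, 152 and 161 CPM with trametinib, against 178, 175 and 173 CPM in DMSO (−0.16 ± 0.04, edgeR adjusted p = 0.0031). The libraries did not overlap in any of the 3 genes, as in 60.1% of all genes tested, and the calls of LARS1 and KARS1 were lost without KP4 trametinib replicate 1 (edgeR adjusted p = 0.0545 and 0.056). IARS1, the isoleucine enzyme, fell by 0.28 on the log2 scale. EPRS1, which charges both glutamate and proline, was at −0.09 and did not pass the test, and QARS1, the glutamine enzyme, was at 0.14 (edgeR adjusted p = 0.0509).

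Outside the complex, the remaining KP4 changes ran between −0.34 and 0.00. CARS1 fell by 0.34, SARS1 by 0.33, VARS1 by 0.27, WARS1 by 0.23 and AARS1 by 0.23 on the log2 scale, which are the enzymes for cysteine, serine, valine, tryptophan and alanine. The 2 subunits of the phenylalanine enzyme fell together, FARSB by 0.31 and FARSA by 0.22. NARS1, for asparagine, was at −0.09 and HARS1, for histidine, at 0.00, and neither passed the test.

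Mitochondrial enzymes moved less uniformly in KP4. EARS2, the glutamate enzyme whose product is also the precursor of mitochondrial glutaminyl-tRNA, fell by 0.38, YARS2 by 0.29, MARS2 by 0.30, AARS2 by 0.23 and VARS2 by 0.16 on the log2 scale. The call of MARS2 was lost without KP4 trametinib replicate 2 or 3 (edgeR adjusted p = 0.0842 and 0.0827) and that of VARS2 without replicate 2 (0.0585). HARS2, the mitochondrial histidine enzyme, rose by 0.20. The other 10 did not pass the test: FARS2 0.22, CARS2 0.13, RARS2 0.07, IARS2 0.03, WARS2 −0.03, LARS2 −0.04, PARS2 −0.08, NARS2 −0.11, TARS2 −0.13 and SARS2 −0.26 (log2 fold changes). In a fit of the 6 KP4 libraries alone, 10 mitochondrial genes were called rather than 6.

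**Figure D1:**
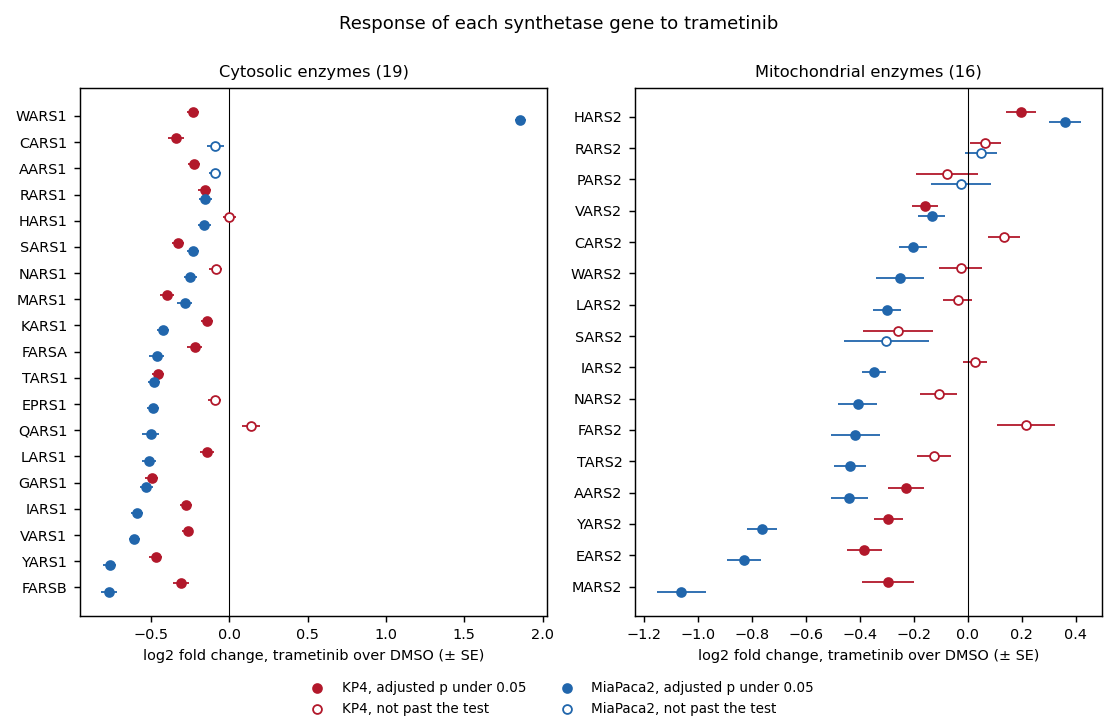
Log2 fold change of each synthetase gene, trametinib over DMSO, in KP4 (red) and MiaPaca2 (blue), with the SE as bars; filled points have an edgeR adjusted p under 0.05 and the cytosolic and mitochondrial enzymes have separate panels with their own scales. WARS1 in MiaPaca2, at 1.86, lies far right of all other points, and most of the rest lie left of 0.

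In MiaPaca2 most synthetase transcripts of both compartments were lower with trametinib, with WARS1 as a large exception. Of the 19 cytosolic genes 16 were lower and WARS1 was higher; 12 of the 16 mitochondrial genes were lower and HARS2 was higher. Of all 35, 30 were called (85.7%), 28 of them lower. The background was high here too: 64% of the 16133 genes were called, 29.7% lower and 34.4% higher, and 75.4% of the 9856 genes at or above the lowest member's level. Medians were −0.46 for the cytosolic and −0.32 for the mitochondrial genes on the log2 scale, beside 0.05 over all genes and −0.03 over the genes at or above the lowest member's level. Without MiaPaca2 DMSO replicate 2, 30 members were called again, 28 of them lower.

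Mitochondrial enzymes held the deepest falls in MiaPaca2. MARS2 (ENSG00000247626, chromosome 2, 197705369 to 197708387, plus strand, GRCh38), whose methionyl-tRNA serves both initiation and elongation in mitochondria, had 14.7, 14.2 and 13.5 CPM in the MiaPaca2 trametinib libraries, against 28.1, 29.5 and 30.9 CPM in the MiaPaca2 DMSO libraries. EARS2 had 37.9, 42.8 and 43.6 CPM with trametinib, against 75.1, 71.6 and 74.1 CPM in DMSO. In each gene the treated libraries were close together and all far below the controls. The log2 fold change was −1.06 ± 0.09 for MARS2 (edgeR adjusted p = 1.67e-10) and −0.83 ± 0.06 for EARS2 (edgeR adjusted p = 1.29e-11). YARS2 fell by 0.76, close behind. Next came AARS2 (−0.44), TARS2 (−0.44), FARS2 (−0.42), NARS2 (−0.41), IARS2 (−0.35), LARS2 (−0.30), WARS2 (−0.25) and CARS2 (−0.20), all lower by the test; the call of WARS2 was lost without MiaPaca2 trametinib replicate 2 (edgeR adjusted p = 0.074). VARS2 was the mildest of the called falls: it had 63.2, 62.4 and 62.8 CPM with trametinib, against 68.1, 69.6 and 69.1 CPM in DMSO (−0.13 ± 0.05, edgeR adjusted p = 0.0203). Its libraries were fully separated, but 22% of its exon bases are shared with GTF2H4 on the same strand, and the call was lost with scaling by library size alone (0.0536). RARS2 (0.05), PARS2 (−0.03) and SARS2 (−0.30) did not pass the test in MiaPaca2, nor in KP4.

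Among the cytosolic enzymes the phenylalanine subunit FARSB and the tyrosine enzyme YARS1 fell furthest in MiaPaca2. FARSB had 107, 108 and 109.9 CPM with trametinib, against 199, 172 and 182 CPM in DMSO, a log2 fold change of −0.77 ± 0.05 (edgeR adjusted p = 3.93e-13). YARS1 had 183, 195 and 184 CPM with trametinib, against 309, 332 and 312 CPM in DMSO, a log2 fold change of −0.76 ± 0.04 (edgeR adjusted p = 1.32e-14). All treated libraries of both genes were far below all controls. All 7 enzymes of the multi-synthetase complex were lower, with a median of −0.49: IARS1 by 0.59, LARS1 by 0.51, QARS1 by 0.50, EPRS1 by 0.49, KARS1 by 0.42, MARS1 by 0.28 and RARS1 by 0.15. RARS1 was the mildest, with 171, 178 and 179 CPM in treated libraries and 205, 189.8 and 191 CPM in control libraries, which still did not overlap, as in 64.4% of all genes tested. Of the 12 cytosolic enzymes outside the complex 9 were lower and 1 higher, with a median of −0.35, and over all genes tested 29.7% were lower. Outside the complex VARS1 fell by 0.60, GARS1 by 0.53, TARS1 by 0.48, FARSA by 0.46, NARS1 by 0.25, SARS1 by 0.23 and HARS1 by 0.16 on the log2 scale. AARS1, at −0.09 (edgeR adjusted p = 0.0525), and CARS1, at −0.09, did not pass the test.

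WARS1 (ENSG00000140105, chromosome 14, 100333788 to 100376805, minus strand, GRCh38) moved in opposite directions in the lines. It had 1712, 1731 and 1771 CPM in the MiaPaca2 trametinib libraries, against 484, 467 and 488 CPM in the MiaPaca2 DMSO libraries. In KP4 it had 118, 124 and 129.9 CPM with trametinib, against 148, 145 and 143 CPM in DMSO. The treated MiaPaca2 libraries thus carried by far the highest WARS1 levels of the 12, and the treated KP4 libraries the lowest. WARS1 rose 3.62-fold in MiaPaca2, a log2 fold change of 1.86 ± 0.04 (edgeR adjusted p = 3.14e-24), and fell in KP4 (−0.23 ± 0.04, edgeR adjusted p = 2.08e-05). The difference between the responses, KP4 minus MiaPaca2, was −2.09 ± 0.05 (edgeR adjusted p = 8.11e-20). It is the only member called in opposite directions in the lines; 442 of the 16133 genes were. Of its exon bases 10.6% lie opposite other annotated genes, WDR25 among them.

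Beside WARS1, 6 interferon-stimulated genes were read, and 6 of 6 were higher with trametinib in MiaPaca2 and 5 of 6 in KP4. Over all genes tested, 34.4% were higher in MiaPaca2 and 23.9% in KP4. IRF1, a transcription factor that interferon induces, had 259.8, 251 and 254 CPM in MiaPaca2 trametinib, against 31.5, 39.5 and 31.6 CPM in MiaPaca2 DMSO (2.90 ± 0.06, edgeR adjusted p = 3.62e-23). In KP4 it had 84.5, 75.7 and 80.7 CPM with trametinib, against 42.1, 39.5 and 41.7 CPM in DMSO (0.97 ± 0.06, edgeR adjusted p = 1.99e-12). IRF1 therefore rose in both lines, with no overlap between treated and control libraries, and by more in MiaPaca2, with a difference of −1.93 ± 0.09 (edgeR adjusted p = 9.81e-15). GBP1 and TAP1, an interferon-induced GTPase and the peptide transporter of antigen presentation, rose in MiaPaca2 by 5.54 and 3.58 and in KP4 by 3.03 and 2.77. GBP2, the gene that did not pass the test in KP4, was at 1.00 there and rose by 2.40 in MiaPaca2. WARS1 was the exception in KP4, where it fell while IRF1, GBP1 and TAP1 rose. Whether WARS1 and these genes share a cause was not tested.

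**Figure D2:**
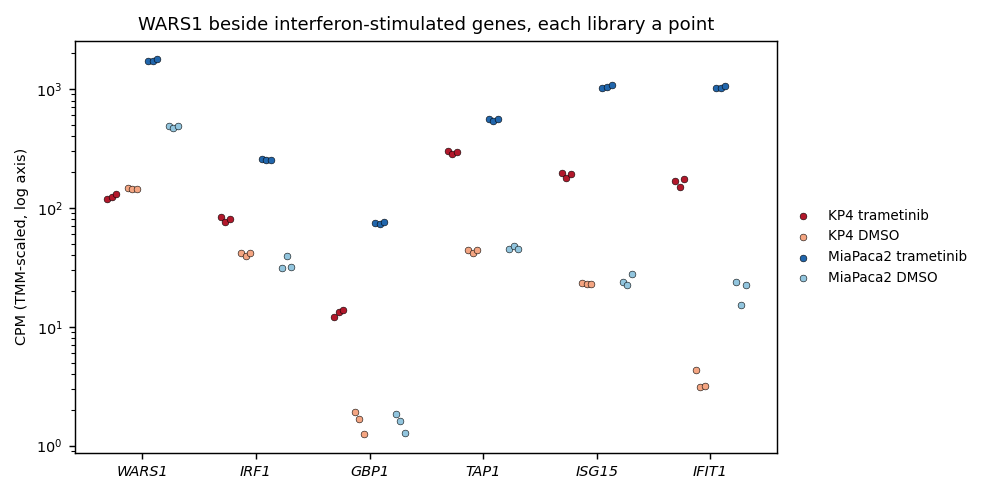
Level in CPM (log axis, TMM-scaled) of WARS1 and 5 interferon-stimulated genes in each library, by group. For WARS1 the treated KP4 points lie at 118 to 130 CPM, below their DMSO controls, while for the other 5 genes treated points lie above their controls in both lines.

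The response of 22 members differed between the lines by the test of the difference itself, where 35.7% of all 16133 genes did and 47.8% of the 9856 at or above the lowest member's level. In 20 of them the log2 fold change was higher in KP4 than in MiaPaca2, against 16% of all genes. This direction held 11 cytosolic and 9 mitochondrial members, with medians over the full lists of 0.16 and 0.28 beside −0.05 over all genes. WARS1 and CARS1 went the other way, a direction taken by 19.7% of all genes. Without MiaPaca2 DMSO replicate 2, 25 members differed, 20 higher and 5 lower in KP4, with AARS1, MARS1 and SARS1 joining WARS1 and CARS1.

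The largest positive differences were in MARS2, QARS1 and FARS2. MARS2 had 16.7, 12.7 and 12.8 CPM in KP4 trametinib, against 17.8, 17.5 and 16.6 CPM in KP4 DMSO, groups that overlap, unlike those of MiaPaca2 given above, and the difference was 0.77 ± 0.13 (edgeR adjusted p = 6.07e-05). QARS1 (ENSG00000172053, chromosome 3, 49095932 to 49105135, minus strand, GRCh38) had 60.8, 62.1 and 59.2 CPM in KP4 trametinib, against 55.8, 52.4 and 56.8 CPM in KP4 DMSO. In MiaPaca2 it had 88.8, 91.9 and 88.0 CPM with trametinib, against 136, 115 and 129 CPM in DMSO. Treated QARS1 libraries were thus above their controls in KP4 and below them in MiaPaca2, with a difference of 0.64 ± 0.08 (edgeR adjusted p = 5.15e-07). The KP4 change alone missed the threshold, and passed it under 8 of 21 alternatives, among them scaling by RLE size factors (edgeR adjusted p = 0.0329). FARS2, the mitochondrial phenylalanine enzyme, had 11.8, 13.2 and 10.8 CPM in KP4 trametinib and 10.7, 10.3 and 9.84 CPM in KP4 DMSO. In MiaPaca2 FARS2 had 16.2, 18.2 and 19.5 CPM with trametinib, against 24.2, 21.8 and 25.9 CPM in DMSO, and the responses differed by 0.63 ± 0.14 (edgeR adjusted p = 9.54e-04).

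CARS1 was, with WARS1, the other member whose log2 fold change was lower in KP4 by this test. It had 87.1, 87.1 and 83.2 CPM in KP4 trametinib, against 108, 111 and 106 CPM in KP4 DMSO. In MiaPaca2 it had 66.4, 71.5 and 73.3 CPM with trametinib, against 73.1, 80.9 and 70.5 CPM in DMSO. The KP4 groups were separated and the MiaPaca2 groups overlapped, and the difference was −0.25 ± 0.08 (edgeR adjusted p = 0.0118; 0.0789 without KP4 trametinib replicate 1). At the small end of the called differences was HARS1, at 0.16 ± 0.06 (edgeR adjusted p = 0.0473), a call that was lost under 13 of 20 alternatives. Other members differed little or not detectably between the lines: 0.00 ± 0.06 for RARS1, 0.02 ± 0.06 for TARS1 and 0.03 ± 0.06 for GARS1, none past the test. Across the 35 genes 17 were lower in both lines, that is 17 of the 20 lower in KP4 and of the 28 lower in MiaPaca2; 1 was higher in both, and PARS2, RARS2 and SARS2 passed the test in neither. Of all 16133 genes 2729 were lower in both lines, 3057 higher in both, and 4278 passed in neither.

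The next comparison set the lines against each other in the same medium. In DMSO, 27 of 35 members differed between KP4 and MiaPaca2, 7 higher and 20 lower in KP4, where 63.2% of all genes differed, 32% higher and 31.2% lower, and 73.8% of those at or above the lowest member's level. Of the 16 mitochondrial genes 10 were lower in KP4 and 3 higher, and of the 19 cytosolic genes 10 were lower and 4 higher. The medians were −0.33 for the mitochondrial genes, −0.10 for the cytosolic genes and 0.02 for all genes. With trametinib, 26 members differed, 16 higher and 10 lower in KP4, where 56.3% of all genes differed, 26.5% higher and 29.8% lower, and 65.2% of those at or above the lowest member's level. The medians were then 0.11 for the cytosolic and 0.00 for the mitochondrial genes. Without MiaPaca2 DMSO replicate 2 the counts were 28 members in DMSO, 9 higher and 19 lower.

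WARS1 was the furthest apart in both media, with −3.81 ± 0.04 in trametinib (edgeR adjusted p = 2.66e-29) and −1.72 ± 0.04 in DMSO (edgeR adjusted p = 9.65e-23), KP4 over MiaPaca2 on the log2 scale. FARS2 and QARS1 followed in DMSO, at −1.23 ± 0.10 and −1.20 ± 0.06 (edgeR adjusted p = 4.15e-11 and 7.64e-16); the libraries given above show each KP4 value below each MiaPaca2 value, as groups are separated in 66.1% of all genes. CARS2, the mitochondrial cysteine enzyme, had 33.2, 34.0 and 34.7 CPM in KP4 trametinib, against 56.3, 57.5 and 55.7 CPM in MiaPaca2 trametinib. In DMSO it had 31.1, 30.1 and 31.7 CPM in KP4, against 64.1, 64.2 and 66.8 CPM in MiaPaca2. CARS2 was thus lower in KP4 in either medium (−0.73 ± 0.06 in trametinib and −1.07 ± 0.06 in DMSO, edgeR adjusted p = 1.75e-11 and 6.81e-15). Its cytosolic counterpart CARS1 leaned the other way, at 0.29 ± 0.05 in trametinib and 0.53 ± 0.05 in DMSO.

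Higher in KP4 in DMSO were 4 cytosolic enzymes, those for cysteine, methionine, threonine and valine. With trametinib 11 cytosolic genes were higher in KP4, these among them. Over all genes, 32% were higher in KP4 in DMSO and 26.5% with trametinib. MARS1 had 226, 218 and 214 CPM in MiaPaca2 trametinib and 248, 295 and 259 CPM in MiaPaca2 DMSO, below the KP4 libraries of the same medium, and differed by 0.38 ± 0.05 in trametinib and 0.50 ± 0.05 in DMSO. TARS1 had 294, 293 and 279.6 CPM in MiaPaca2 trametinib and 406, 426 and 377 CPM in MiaPaca2 DMSO, and differed by 0.48 ± 0.04 in trametinib and 0.45 ± 0.04 in DMSO. VARS1 had 385, 387 and 388 CPM in KP4 trametinib, against 269, 263 and 261 CPM in MiaPaca2 trametinib, a log2 difference of 0.55 ± 0.04 (edgeR adjusted p = 1.33e-12). In DMSO the VARS1 gap was narrower, with 457, 466 and 470.0 CPM in KP4 and 386, 401 and 419 CPM in MiaPaca2 (0.21 ± 0.04). SARS2, the mitochondrial serine enzyme, came next in trametinib: it had 9.94, 7.66 and 10.1 CPM in KP4, against 8.33, 5.92 and 5.83 CPM in MiaPaca2 (0.46 ± 0.15, edgeR adjusted p = 0.0109). Those SARS2 libraries overlap, the counts are the lowest of any member, and 46.2% of its exon bases are shared with another annotated gene on the same strand, so its level is uncertain. The calls of GARS1, EPRS1, YARS1, HARS2, LARS2 and SARS2 in trametinib, and of HARS1, IARS1, AARS2 and SARS2 in DMSO, were each lost under 1 to 4 of 21 alternatives.

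**Figure D3:**
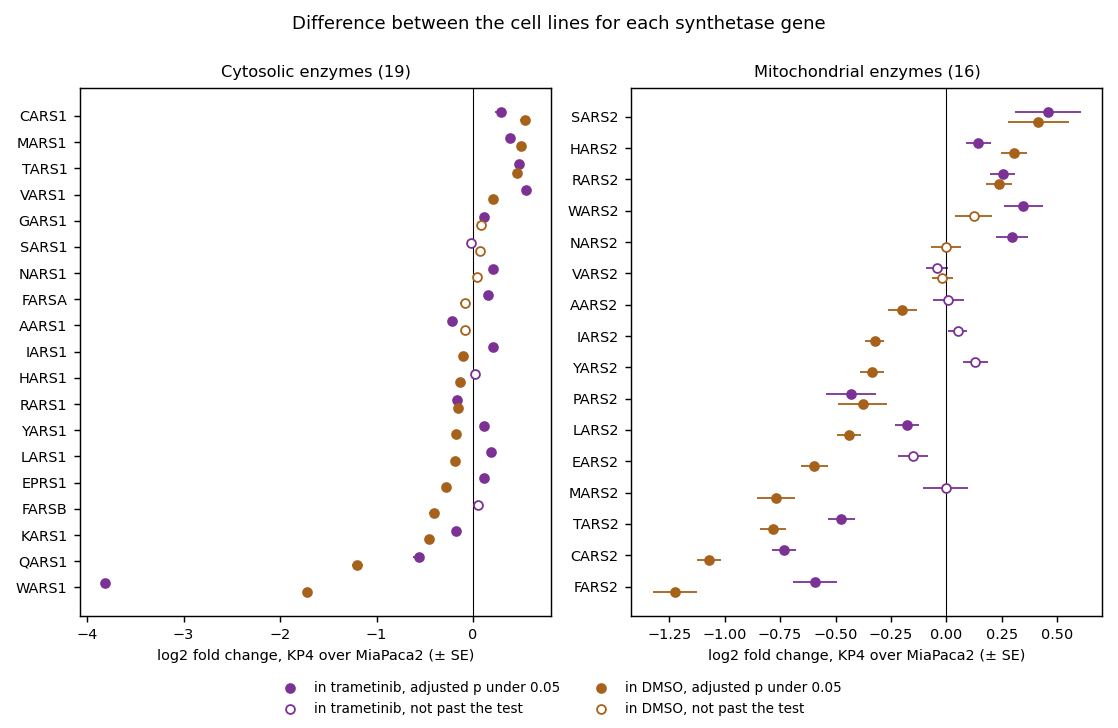
Log2 fold change of each synthetase gene, KP4 over MiaPaca2, in trametinib (purple) and in DMSO (brown), with the SE as bars; filled points have an edgeR adjusted p under 0.05. WARS1 lies at −3.81 in trametinib and −1.72 in DMSO, and the mitochondrial genes FARS2, CARS2, TARS2 and MARS2 lie furthest left of the mitochondrial panel in DMSO.

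Cytosolic and mitochondrial enzymes were then compared as sums over all 4 groups. The summed level of the 19 cytosolic genes was 876 ± 4.35 CPM per kilobase in KP4 trametinib, against 1053 ± 9.03 in KP4 DMSO (mean ± SD, n = 3). That of the 16 mitochondrial genes was 199 ± 5.58 in KP4 trametinib, against 207 ± 2.06 in KP4 DMSO. The cytosolic sum of KP4 was thus clearly lower with trametinib, while the mitochondrial sums lay close together. In MiaPaca2 the cytosolic sum was 1070.3 ± 5.74 with trametinib, against 1136 ± 14.4 in DMSO. The mitochondrial sum was 196 ± 1.01 in MiaPaca2 trametinib, against 250.3 ± 5.94 in MiaPaca2 DMSO. Here it was the mitochondrial sum that stood lower by more, in proportion, with treatment.

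The ratio of the cytosolic to the mitochondrial sum moved in opposite directions in the lines. It was 4.41 ± 0.111 in KP4 trametinib, against 5.08 ± 0.00701 in KP4 DMSO, and 5.47 ± 0.0577 in MiaPaca2 trametinib, against 4.54 ± 0.164 in MiaPaca2 DMSO. The direction in MiaPaca2 rested on WARS1, a check added after seeing the data. WARS1 held 25.5% ± 0.478 of the cytosolic sum in treated MiaPaca2 cells, against 6.64% ± 0.226 in the MiaPaca2 controls, and 2.22% ± 0.0958 in treated KP4 cells, against 2.17% ± 0.0335 in the KP4 controls. With WARS1 left out, the ratio was 4.07 ± 0.0587 in MiaPaca2 trametinib, against 4.24 ± 0.163 in MiaPaca2 DMSO, so the direction turned and the gap was near the spread between libraries. In KP4 it was 4.31 ± 0.109 with trametinib, against 4.97 ± 0.00746 in DMSO, which kept its direction.

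**Figure D4:**
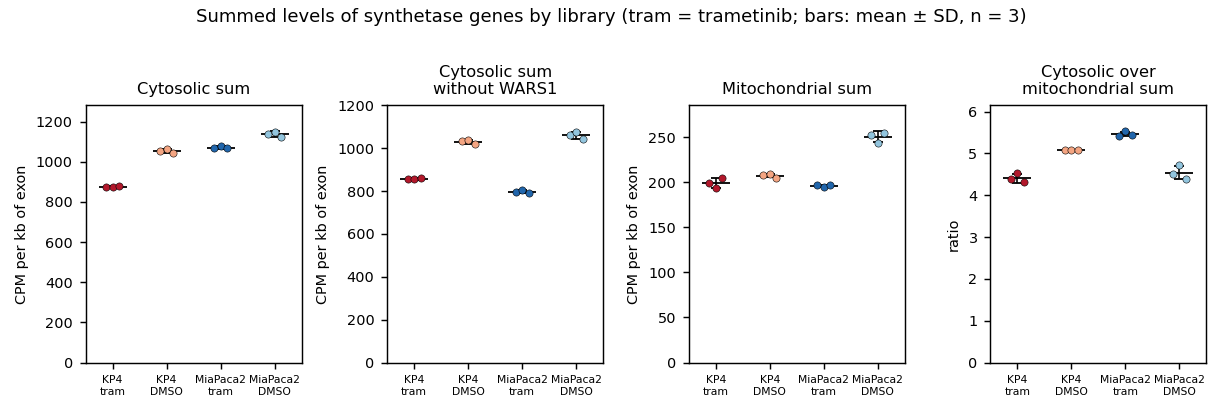
Summed levels of the cytosolic and mitochondrial synthetase genes in CPM per kilobase of exon, and their ratio, in each library, with the mean and SD of each group (n = 3). The ratio is 4.41 in KP4 trametinib and 5.08 in KP4 DMSO, and 5.47 in MiaPaca2 trametinib and 4.54 in MiaPaca2 DMSO, while the sum without WARS1 is lower with trametinib in both lines.

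The enzymes also divide into class I and class II by the fold of their catalytic domain, and neither class held the falls alone. Of 18 class I genes, 12 were lower in KP4 (median −0.19) and 15 lower and 1 higher in MiaPaca2 (median −0.32). Of 16 class II genes, 8 were lower and 1 higher in KP4 (median −0.18) and 12 lower and 1 higher in MiaPaca2 (median −0.41). Over all genes tested, 24.1% were lower in KP4 and 29.7% in MiaPaca2.

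For 13 amino acids the list held a cytosolic and a mitochondrial gene, named with 1 and 2. In KP4 the log2 fold change of the cytosolic gene was below that of its mitochondrial counterpart in 11 of 13 pairs, and in MiaPaca2 in 7 of 13. Pairs differed in their balance of levels per kilobase: the cytosolic gene was above its counterpart in every library of 11 pairs in KP4 trametinib, 12 in KP4 DMSO, and 11 in both MiaPaca2 groups. Isoleucine was the reverse case on this scale only, which divides by all annotated exon bases, 7401 for IARS1 and 4165 for IARS2. In CPM not divided by length, IARS1 was above IARS2 in all 4 groups. The means were 346 against 260 in KP4 trametinib and 419 against 256 in KP4 DMSO. In MiaPaca2 they were 299 against 251 with trametinib and 449 against 320 in DMSO. The ratio of IARS1 to IARS2 was 0.749 ± 0.0482 in KP4 trametinib, against 0.922 ± 0.0200 in KP4 DMSO, and 0.669 ± 0.0251 in MiaPaca2 trametinib, against 0.793 ± 0.0530 in MiaPaca2 DMSO. Tyrosine was nearly balanced per kilobase, with ratios of YARS1 to YARS2 of 1.01 ± 0.0431, 1.14 ± 0.0363, 1.03 ± 0.0665 and 1.03 ± 0.0527 in KP4 trametinib, KP4 DMSO, MiaPaca2 trametinib and MiaPaca2 DMSO. That balance too depends on annotated exon length, 8212 bases for YARS1 and 2152 for YARS2. Undivided, the KP4 DMSO means were 280 and 64.2 CPM. In MiaPaca2 the tyrosine pair fell by the same amount in both compartments. The methionine pair moved apart in MiaPaca2, with a ratio of MARS1 to MARS2 of 6.67 ± 0.116 with trametinib, against 3.89 ± 0.361 in DMSO. For tryptophan the ratio of WARS1 to WARS2 was 73.7 ± 6.23 in MiaPaca2 trametinib, against 17.0 ± 0.284 in MiaPaca2 DMSO, and 4.11 ± 0.343 in KP4 trametinib, against 4.72 ± 0.107 in KP4 DMSO.

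The histidine pair is made of neighbouring genes. HARS1 (ENSG00000170445, chromosome 5, 140673904 to 140691862, minus strand) and HARS2 (ENSG00000112855, chromosome 5, 140691426 to 140699318, plus strand, GRCh38) are transcribed away from each other, and their RefSeq start sites on GRCh38.p14 lie 85 bases apart. The gene spans just given are of GENCODE release 29, in which the 2 genes overlap and HARS2 starts inside the stretch below. The 84 bases between the RefSeq starts, chr5:140691371-140691454 on the plus strand, are shown because those starts border the stretch and yet the genes moved differently.
HARS1 and HARS2: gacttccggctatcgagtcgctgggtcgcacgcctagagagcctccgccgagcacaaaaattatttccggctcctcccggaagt
HARS2 had 65.3, 71.0 and 69.3 CPM in KP4 trametinib, against 57.9, 60.5 and 60.6 CPM in KP4 DMSO, and 63.7, 64.3 and 58.3 CPM in MiaPaca2 trametinib, against 50.4, 45.5 and 49.1 CPM in MiaPaca2 DMSO. HARS1 had 153, 153 and 159 CPM in KP4 trametinib, against 152, 154 and 158 CPM in KP4 DMSO, and 154, 154 and 148 CPM in MiaPaca2 trametinib, against 170.2, 159.9 and 179 CPM in MiaPaca2 DMSO. HARS2 was higher in every treated library of both lines, while HARS1 overlapped in KP4 and was lower with treatment in MiaPaca2. HARS2 rose by 0.20 ± 0.06 in KP4 (edgeR adjusted p = 0.00438) and 0.36 ± 0.06 in MiaPaca2 (edgeR adjusted p = 7.61e-06), and it is the only member higher in both lines. HARS1 stood at 0.00 ± 0.04 in KP4 and −0.16 ± 0.04 in MiaPaca2 (edgeR adjusted p = 0.995 and 0.00292). Of the exon bases of HARS2, 11.7% lie opposite annotated exons of HARS1 and 4.1% are shared with ZMAT2, and whether counting used strand is not given in the sources used here, so reads over those bases cannot be assigned to 1 gene.

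**Figure D5:**
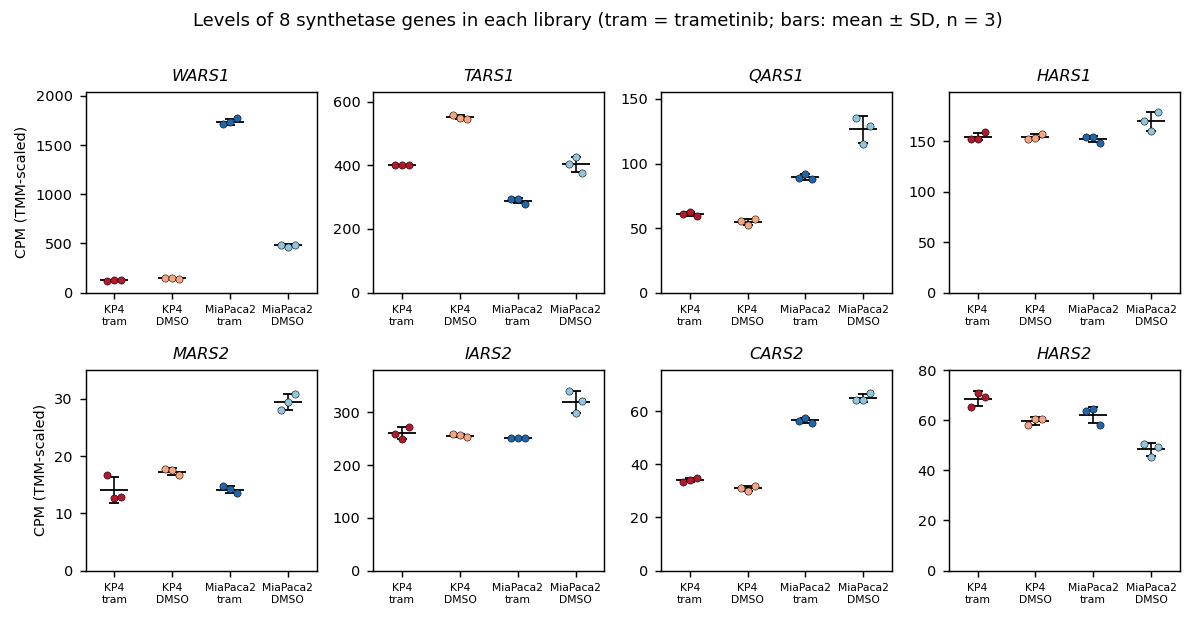
Level in CPM (TMM-scaled, axes start at 0) of 8 synthetase genes in each library by group, with the mean and SD (n = 3). TARS1 is lower with trametinib in both lines, WARS1 is at 1712 to 1771 CPM in MiaPaca2 trametinib only, and HARS2 is higher with trametinib in both lines.

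Because amino acid shortage acts on synthetase genes through ATF4, genes of that pathway were read beside them. In KP4, ATF4 had 166, 171 and 165 CPM with trametinib, against 272, 276 and 269 CPM in DMSO (−0.70 ± 0.10, edgeR adjusted p = 9.07e-05). In MiaPaca2 it had 144, 150.4 and 154 CPM with trametinib, against 154, 214 and 160.3 CPM in DMSO (−0.24 ± 0.10, edgeR adjusted p = 0.0575). ATF4 transcripts thus fell in KP4 and did not pass the test in MiaPaca2, where DMSO replicate 2 was the highest library; the responses differed by −0.47 ± 0.14 (edgeR adjusted p = 0.0217). Without that library the MiaPaca2 value was −0.0763 ± 0.0412 (edgeR adjusted p = 0.104). Of 20 genes of the integrated stress response and amino acid supply, 13 were lower and 2 higher in KP4, with a median of −0.45. In MiaPaca2 8 were lower and 6 higher, with a median of −0.09. Among all genes tested, 24.1% were lower and 23.9% higher in KP4, and 29.7% lower and 34.4% higher in MiaPaca2. The MiaPaca2 count of higher genes is thus near the share of all genes. TRIB3, an ATF4-induced pseudokinase, fell by 1.21 in KP4 and 0.75 in MiaPaca2, and CHAC1, an ATF4-induced enzyme that breaks down glutathione, fell by 1.12 in KP4. In MiaPaca2 CHAC1 was at 0.47 (edgeR adjusted p = 0.14), and at 1.02 ± 0.17 without DMSO replicate 2 (1.2e-06). CEBPB, a partner of ATF4, fell by 0.68 in KP4 and rose by 1.06 in MiaPaca2. ASNS, asparagine synthetase, fell by 1.18 and 1.15, at levels of at most 3.88 CPM and with 44.6% of its exon bases shared with another gene. DDIT3, a stress-induced transcription factor, was at −0.30 in KP4, short of the threshold, and rose by 1.36 in MiaPaca2, where DMSO replicate 2 had 14.3 CPM and the other controls 6.89 and 6.12; without that library it rose by 1.84. NUPR1, another stress-induced regulator, rose in both lines, by 2.37 in KP4, where it stayed at or below 1.41 CPM, and by 5.16 in MiaPaca2.

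Of the cytosolic members, 13 are described in mammalian work as bound or induced by ATF4. In KP4 11 of them were lower, with a median of −0.28, and 10 were lower and 1, WARS1, higher in MiaPaca2, with a median of −0.48. Of all 19 cytosolic members 15 were lower in KP4 and 16 in MiaPaca2, as were 24.1% and 29.7% of all genes. MYC, a transcription factor that raises many genes of protein synthesis, fell by 0.55 in KP4 and 1.05 in MiaPaca2, and the part of either factor in the synthetase changes was not tested.

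Promoters of 30 members, 16 cytosolic and 14 mitochondrial, were matched by symbol in RefSeq on GRCh38.p14, as the 250 bases before and 50 after each start; LARS1, VARS1, YARS1, AARS2 and VARS2 were not matched. The letters TGATGNAA, the composite element of ATF4 and C/EBP factors, were searched on both strands. They occurred in 6 of 16 cytosolic promoters (37.5%), 1 of 14 mitochondrial promoters (7.14%) and 3.67% of 27305 promoters in the table. The 50-base windows around these matches are printed because they show the same core in genes of which most were lower with trametinib, with the element in capitals and each window read along its gene's own strand.
AARS1 chr16:70289665-70289714 minus: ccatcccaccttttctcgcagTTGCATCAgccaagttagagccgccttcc
CARS1 chr11:3057397-3057446 minus: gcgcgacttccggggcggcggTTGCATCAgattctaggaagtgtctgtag
IARS1 chr9:92293682-92293731 minus: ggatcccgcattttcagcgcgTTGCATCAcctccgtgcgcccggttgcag
MARS1 chr12:57488043-57488092 plus: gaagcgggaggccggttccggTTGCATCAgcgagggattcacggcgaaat
NARS1 chr18:57621794-57621843 minus: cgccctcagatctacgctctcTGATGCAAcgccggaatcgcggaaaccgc
TARS1 chr5:33440946-33440995 plus: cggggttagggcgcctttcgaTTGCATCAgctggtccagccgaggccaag
YARS2 chr12:32756066-32756115 minus: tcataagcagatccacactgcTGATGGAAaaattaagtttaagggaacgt
In the 6 cytosolic genes the core is the same 8 bases, read in 1 orientation in 5 of them and in the other in NARS1, and in YARS2 it differs at the free position. The match begins within 15 bases of the start site in CARS1, IARS1, MARS1, NARS1 and TARS1, and 187 and 197 bases before it in AARS1 and YARS2. Of these 7 genes 6 were lower in KP4 and 5 in MiaPaca2; NARS1 did not pass the test in KP4, nor AARS1 and CARS1 in MiaPaca2. Of all 35 members 20 were lower in KP4 and 28 in MiaPaca2, and of all genes 24.1% and 29.7%. The E-box CACGTG, bound by MYC with MAX among others, was in 3 mitochondrial promoters, those of MARS2, CARS2 and EARS2 (21.43%), in 1 cytosolic promoter, that of IARS1 (6.25%), and in 7.43% of the table. The NRF1 element, GCGCA and GCGC parted by 1 free base, was in 6 members (SARS1, FARSB, TARS1, PARS2, IARS2 and MARS2) and in 6.28% of the table. No 2 motifs overlapped in a member's promoter. WARS1 held none of these 3 in this window, and a match describes letters only, not binding.

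Genes that work with the synthetases are given next. Of the complex scaffolds, AIMP1 was at 0.00 and AIMP2 at 0.09 in KP4, neither past the test, and in MiaPaca2 they fell by 0.29 and 0.27. EEF1E1, at no more than 6.74 CPM, did not pass the test in either line (−0.33 and −0.35), and passed it in MiaPaca2 without DMSO replicate 2 (−0.47, edgeR adjusted p = 0.0295). XPOT, which exports transfer RNA from the nucleus, averaged 199 ± 1.46 CPM in KP4 trametinib, against 240.2 ± 4.51 CPM in KP4 DMSO, and 161 ± 6.84 CPM in MiaPaca2 trametinib, against 232 ± 10.0 CPM in MiaPaca2 DMSO (± SD, n = 3). It was lower with treatment in all libraries of both lines, by 0.27 in KP4 and 0.52 in MiaPaca2. Of 3 proofreading genes outside the synthetases, 0 passed the test in KP4 (edgeR; 0 of 3 also at an unadjusted p under 0.05) and 1, the deacylase gene DTD1, fell by 0.61 in MiaPaca2. Without MiaPaca2 DMSO replicate 2, DTD2 was also lower there (−0.23, edgeR adjusted p = 0.0188). Of the cytosolic elongation factors, 5 of 6 could be tested; EEF1G was listed at 0 in all 12 libraries, and 99.9% of its exon bases are shared with another annotated gene on the same strand. EEF1B2 fell by 0.39 in KP4 and 0.62 in MiaPaca2, EEF1A1 rose by 0.16 and 0.10, and EEF1D and EEF2 fell in MiaPaca2 by 0.21 and 0.30. EEF1A2 rose by 1.28 in KP4 and was at −0.03 in MiaPaca2, a difference of 1.31 ± 0.06 (edgeR adjusted p = 3.29e-14).

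Partners of the mitochondrial enzymes were read in the same way. Of 9 mitochondrial translation factors, 5 were lower and 1 higher in KP4, with a median of −0.16, and 7 were lower in MiaPaca2, with a median of −0.46; 24.1% of all genes were lower in KP4 and 29.7% in MiaPaca2. TUFM, the mitochondrial elongation factor, had 238, 243 and 253 CPM in KP4 trametinib, against 264, 279.9 and 276 CPM in KP4 DMSO, and 333, 345 and 340.0 CPM in MiaPaca2 trametinib, against 613, 559 and 638 CPM in MiaPaca2 DMSO. The step was slight in KP4 (−0.16 ± 0.04) and large in MiaPaca2 (−0.83 ± 0.04), with a difference of 0.67 ± 0.06 (edgeR adjusted p = 2.55e-09). MTIF2, the initiation factor, fell by 0.45 and 0.91, and MTRF1L, a release factor, by 0.71 and 0.87, in KP4 and MiaPaca2. Among the 4 genes of mitochondrial transfer RNA amidation and formylation, which complete the work of EARS2 and MARS2, MTFMT fell in both lines (−0.17 and −0.22) and GATB (−0.39) and QRSL1 (−0.20) in MiaPaca2.

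The messenger RNAs that mitochondrial ribosomes translate mostly stood higher with trametinib in MiaPaca2. Of the 13 encoded by the mitochondrial genome, 3 were higher and 1 lower with trametinib in KP4, with a median of 0.22. In MiaPaca2 10 were higher and 0 lower, with a median of 0.50. Among all genes tested, 23.9% were higher in KP4 and 34.4% in MiaPaca2, so the KP4 count of higher genes is near the share of all genes. MT-ND5, a subunit of complex I, had 2643, 2462 and 2583 CPM in MiaPaca2 trametinib, against 1139.8, 1803 and 1001 CPM in MiaPaca2 DMSO (0.96 ± 0.19, edgeR adjusted p = 0.00161). MT-ND1, another subunit, rose by 0.55 in KP4 and 0.79 in MiaPaca2. All 3 treated MT-ND5 libraries were above the controls, among which DMSO replicate 2, the library that stands apart, was the highest. Without it the log2 fold change of MT-ND5 in MiaPaca2 was 1.26 ± 0.05, and 12 of the 13 messenger RNAs were higher.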

How the data were processed

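RNA of KP4 and MiaPaca2 cells in trametinib or DMSO was made into libraries with a kit for messenger RNA, per the labels' protocols. The authors deposited raw counts per gene, 1 column per library; the submitters' processing notes name STAR, DESeq2 and GRCh38, without versions. The counting program, the use of strand and the handling of multiply mapped reads are not given here by any label or header. Depth was 20293688 to 28018129 counts per library.

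Gene IDs were matched to GENCODE release 29 and RefSeq symbols. The 16133 genes kept by filterByExpr were tested with edgeR 4.0.16 in R 4.3.3 (TMM scaling, quasi-likelihood, robust, 1 mean per group over 12 libraries, biological coefficient of variation 5.47%), with Benjamini-Hochberg adjustment over all of them and calls at adjusted p under 0.05. Library values are TMM-scaled CPM. Alternatives used limma 3.58.1, DESeq2 1.42.0, other scalings and filters and each library left out. Values of genes outside the synthetases without MiaPaca2 DMSO replicate 2 were added after seeing the data. The code was tested on simulated data.

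Members and lists were chosen with earlier results of these data known. Every member was named; library values were given for the 4 largest and 4 smallest called, non-overlapping changes per line and the 3 largest and smallest per other comparison, and at most 4 genes of each further list plus a few always named; 1 listed gene and its motif are not reported here. Same-numbered replicates correlated by −0.0238 to 0.0326, so the numbers were not taken as pairs.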

Additional observations from a re-analysis of the deposited data

Results flagged for a closer look

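The responses of 22 synthetase genes differed between the lines by edgeR's test of the difference, KP4 response minus MiaPaca2 response on the log2 scale. Among the enzymes of the multi-synthetase complex these were QARS1 (0.64), EPRS1 (0.39), LARS1 (0.37), IARS1 (0.31) and KARS1 (0.28). Among the other cytosolic enzymes they were FARSB (0.46), VARS1 (0.34), YARS1 (0.29), FARSA (0.24), NARS1 (0.16), HARS1 (0.16), CARS1 (−0.25) and WARS1 (−2.09). Among the mitochondrial enzymes they were MARS2 (0.77), FARS2 (0.63), YARS2 (0.47), EARS2 (0.45), IARS2 (0.37), CARS2 (0.34), TARS2 (0.31), NARS2 (0.30) and LARS2 (0.26). Of 20 alternatives, the call of HARS1 was lost under 13, that of NARS1 under 8, that of NARS2 under 2 (edgeR adjusted p = 0.0772 without KP4 DMSO replicate 1 and 0.0561 without MiaPaca2 trametinib replicate 1) and that of CARS1 under 1.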

How the results depend on the processing

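Over 175 pairs of member and comparison and all alternatives, 3640 values were computed: 3509 kept their side of the threshold, 59 of them with a change of sign where neither value was called, 73 passed it newly, 58 no longer passed it, and 0 called values turned sign. The number of members called ran over 19 to 28 in KP4, 29 to 32 in MiaPaca2, 20 to 25 for the difference, 26 to 29 between the lines in DMSO and 21 to 28 in trametinib. With the 6 KP4 libraries alone, 10 mitochondrial genes were called; the difference could not be run that way. With the replicate block the counts were 21, 30, 21, 27 and 26; same-numbered libraries were not shown to be paired.

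Median log2 fold changes moved as follows, with "left out" for the range over single libraries left out. The KP4 cytosolic median was −0.21 with RLE scaling, −0.22 by library size only, −0.21 with DESeq2 and −0.26 to −0.20 left out. The MiaPaca2 cytosolic median was −0.49 with only the libraries compared and −0.50 to −0.43 left out; the mitochondrial one was −0.35 with RLE scaling, −0.36 with DESeq2, −0.36 with only the libraries compared and −0.36 to −0.32 left out. For the difference, the cytosolic median was 0.21 with RLE scaling or DESeq2 and 0.15 to 0.23 left out, and the mitochondrial one 0.23 to 0.34 left out. Between the lines in DMSO the cytosolic median was −0.13 with RLE scaling, the strict filter or DESeq2, and −0.0676 by library size only. In trametinib it was 0.14 by library size only, 0.0866 with the strict filter and 0.10 to 0.15 left out, and the mitochondrial one −0.0133 to 0.0523 left out.

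The cytosolic to mitochondrial ratio, in the order KP4 trametinib, KP4 DMSO, MiaPaca2 trametinib and MiaPaca2 DMSO, was 5.58, 6.49, 6.98 and 5.61 from CPM not divided by length and 3.69, 4.19, 4.73 and 3.74 without GARS1 and KARS1. Without WARS1, which was chosen after seeing the data, it was 4.97 in KP4 DMSO, 4.07 in MiaPaca2 trametinib and 4.24 in MiaPaca2 DMSO. Except where a library or gene was left out, the cause of a change was not tested. SARS2 had the lowest counts, 120 to 301 per library.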
